A study of Mus musculus with 48 samples.

Results

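The arrays hybridised with RNA of cells induced for 24 h compared a clone of high (HD) with a clone of low (LD) differentiation inducibility, both derived from T-3-Cl-2-0.fl, a murine erythroleukemia line. They were chosen by their titles, which give the time, and made up 12 of the 48 arrays of the series. HD and LD cells had been treated in parallel with 1.0% dimethyl sulfoxide (DMSO), with 3.0 mM hexamethylene bisacetamide (HMBA) or with 15 nM trichostatin A (TSA). Each drug was represented by 4 arrays, which the labels call technical replicates, and on every array HD and LD RNA of the same drug and time were hybridised together in 2 colours. The other arrays held the same 3 drugs at 6, 12 and 36 h. No uninduced cells were analysed here, each inducibility was represented by a single clone, and separate cultures of one condition were not labelled. Differences between HD and LD cells below are therefore differences between these 2 clones under induction.

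Murine erythroleukemia cells are virus-transformed precursors of red cells that are held before terminal maturation and keep dividing. On exposure to an inducer they commit to maturation over a period of days, leave the cell cycle and accumulate globin, heme and red cell membrane proteins. DMSO and HMBA are small polar inducers, and TSA inhibits histone deacetylases, the enzymes that remove acetyl groups from histones. A time of 24 h lies within the period of commitment, and the comparison asks in which transcripts an inducible and a poorly inducible clone then differ and how far 3 inducers give the same differences.

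The array elements are cDNA clones, named by plate and well. The files do not pair these names with genes, and 0 of the 22171 names matched a symbol or synonym in the RefSeq gene table used here. Elements are therefore called by clone name, at most 2 for each direction of a comparison, and the erythroid and other markers of the cells were not checked. No sequence of a clone was at hand, so none is printed.

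Between 19237 and 20435 clones were listed on an array at 24 h. The measurement of a clone was log2(HD/LD), normalised within each of the 2 deposited parts of an array for its dependence on brightness. For each drug, arrays 1 and 2 were averaged, likewise arrays 3 and 4, and the drug's value was halfway between these averages. These pairs went against each other. Ratios on arrays of one drug from opposite pairs had correlations across clones between -0.34 and -0.04 after normalisation and between -0.84 and -0.40 before it, against 0.40 to 0.73 after normalisation within a pair. Arrays of different drugs behaved alike, with -0.40 to -0.07 between opposite pairs and 0.23 to 0.47 within the same pair.

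**Figure D1:**
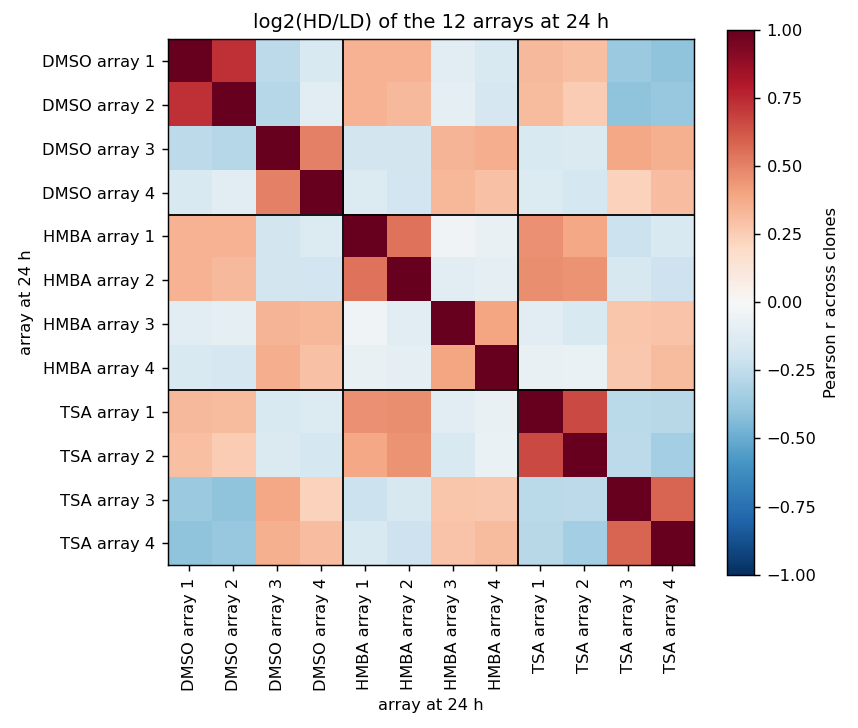
Pearson correlation across tested clones of log2(HD/LD) between the 12 arrays at 24 h, in blocks of 4 arrays per drug (DMSO, HMBA, TSA; colour scale from -1 to 1, diagonal at 1). Arrays 1 and 2 correlate positively with arrays 1 and 2 of every drug, arrays 3 and 4 with arrays 3 and 4, and the 2 pairs correlate negatively with each other, down to -0.40.

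That the ratio is HD over LD is likely but not settled. Per the labels HD RNA was the target and LD RNA the control throughout, and the file columns are headed by these words. The labels also reverse the channel order on arrays 3 and 4 but give HD cells the dye Cy3 throughout, while the design text speaks of dye swaps. Counts are therefore given beside the main ones with the sign of arrays 3 and 4 turned, which is not the reading held likely. Before normalisation the median HD intensity exceeded the median LD intensity on arrays 1 and 2 of every drug. On arrays 3 and 4 it lay below. For DMSO these medians were 451 for HD and 338 for LD on array 1, and 506 and 749 on array 3. What this pattern means for the direction was not tested.

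At 24 h 60 clones were higher and 32 lower in HD than in LD cells over the 3 drugs, by limma at an adjusted p threshold of 0.05. These were 0.497% of the 18494 tested clones, 0.324% higher and 0.173% lower. Most differences were small: the median size was 0.57 on the log2 scale for the higher and 0.84 for the lower clones, against 0.11 over all tested clones. The mean was at least 2-fold different in 5 higher and 11 lower clones. Turning arrays 3 and 4 gave 998 higher and 1718 lower clones, among which were 6 of the 60 higher and 3 of the 32 lower ones.

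Among clones higher in HD cells, H4004H01 was farthest from 0. On arrays 1 to 4 of DMSO it had a log2(HD/LD) of 1.54, 1.52, 1.78 and 1.24. The HMBA arrays gave 1.75, 0.95, 1.31 and 1.88 and the TSA arrays 1.38, 2.29, 1.04 and 1.29. All 12 ratios lay above 0, and the unnormalised HD intensity exceeded the LD intensity on 12 of 12 arrays. The 3 drug values were 1.52, 1.47 and 1.501. Each averages 4 arrays, and averages vary less than single arrays do. The mean of 1.497 ± 0.023 (SD, n = 3 drugs) had a 95% confidence interval from 1.30 to 1.70 and an adjusted p of 2.25e-06 in limma, a 2.82-fold excess. The LD intensity was low on some arrays, 31.0 on array 2 of TSA, where the ratio was highest. An offset of 50 in both channels lowered the mean to 1.25, below that interval. Turning arrays 3 and 4 left a value of 0.074 (adjusted p = 0.631 in limma).

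H3140G04 had the next largest excess, 1.30 ± 0.07 (SD, n = 3 drugs; interval 0.99 to 1.60, adjusted p = 0.000297 in limma), or 2.45-fold. It gave 1.92, 1.77, 1.33 and -0.15 on the DMSO arrays, 1.36, 1.40, 1.13 and 1.37 on the HMBA arrays and 1.57, 1.78, 1.13 and 0.94 on the TSA arrays. Array 4 of DMSO stood alone below 0, and it was also the only array of the 12 on which the unnormalised HD intensity was below the LD intensity. Arrays 1 and 2 averaged 1.63 over the drugs and arrays 3 and 4 averaged 0.96. Turning arrays 3 and 4 gave 0.34 (adjusted p = 0.0483 in limma).

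H4016F12 was the clone furthest below 0. Its log2(HD/LD) was -2.24, -1.50, -1.89 and -1.22 on the DMSO arrays, -1.74, -1.65, -1.62 and -2.54 on the HMBA arrays and -1.75, -1.85, -2.16 and -1.62 on the TSA arrays. All 12 ratios lay below -1, and the pairs of arrays averaged -1.79 and -1.84. The mean over drugs was -1.82 ± 0.09 (SD, n = 3 drugs; interval -2.24 to -1.39, adjusted p = 0.000297 in limma), so that LD cells had 3.52-fold more. Without all DMSO arrays it was -1.87 with an adjusted p of 0.113 in limma, and with arrays 3 and 4 turned it was 0.026 (adjusted p = 0.904).

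H3049A07 followed with -1.28 ± 0.16 (SD, n = 3 drugs; interval -1.49 to -1.06, adjusted p = 2.11e-05 in limma), a 2.43-fold deficit. Its ratios were -0.93, -1.23, -1.12 and -1.17 on the DMSO arrays, -1.57, -1.58, -0.92 and -1.11 on those of HMBA and -1.65, -1.71, -1.11 and -1.25 on those of TSA. Under HMBA and TSA arrays 1 and 2 lay lower than arrays 3 and 4, whereas under DMSO the pairs overlapped. It was -0.17 with arrays 3 and 4 turned (adjusted p = 0.337).

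**Figure D2:**
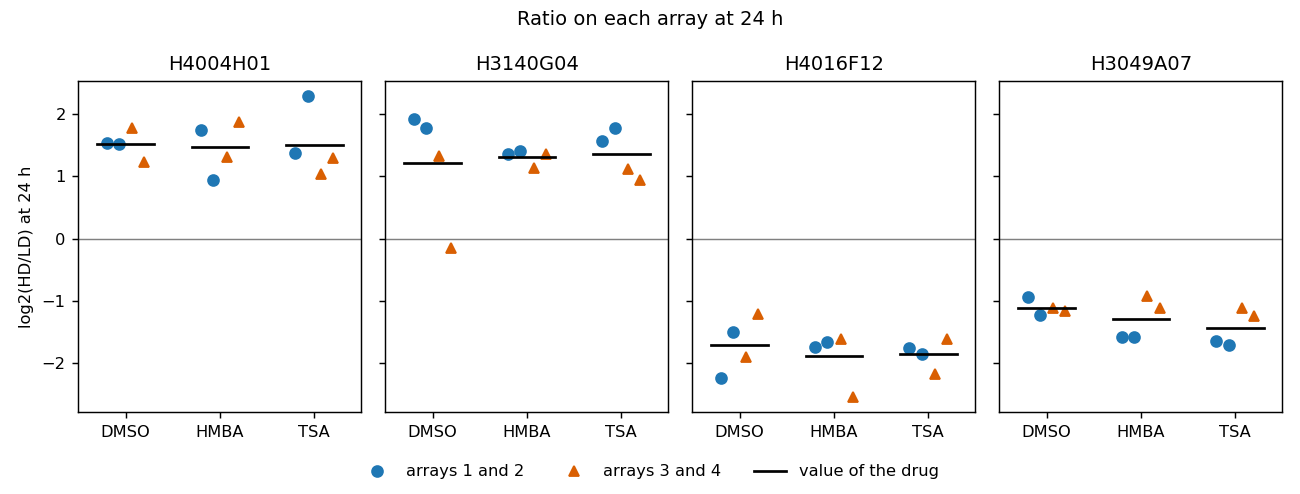
log2(HD/LD) on each of the 12 arrays at 24 h for the 2 clones with the largest called excess and the 2 with the largest called deficit in HD cells. Circles are arrays 1 and 2, triangles arrays 3 and 4, bars the value of each drug. H4004H01 lies above 0 and H4016F12 and H3049A07 below 0 on all 12 arrays, while H3140G04 has 1 array, of DMSO, at -0.15.

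All 92 called clones had the same sign under the 3 drugs, which follows in part from their choice by the mean. Over all tested clones 6626, or 35.8%, had the same sign under the 3 drugs. A value on every array was at hand for 59 higher and 30 lower clones, of which 32 and 22 had 1 sign on all 12, against 229 of 16983 clones, or 1.35%, overall. These shares of all clones were 51.4% and 5.70% with arrays 3 and 4 turned. Clones chosen by a large mean over these arrays tend to have 1 sign on them, so the 32 and 22 are in part that choice. The difference between the array pairs, divided by 2, had a median size of 0.14 in the higher and 0.12 in the lower clones, against 0.15 over all tested clones. It exceeded the ratio itself in 0 higher clones, 1 lower clone and 61.7% of all tested clones, and clones chosen for a large ratio had to show a low count.

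Position on the array and brightness were not used by the test. Of the lower clones 26 of 32, or 81.2%, were in the first deposited part, which held 55.0% of tested clones, whereas 29 of the 60 higher clones, or 48.3%, were. Turned arrays gave 54.6% for the 1718 lower and 52.1% for the 998 higher clones. The brightness of the higher clones, as mean log2 intensity of both channels at 24 h, had a median of 8.91, close to the 9.01 of all tested clones. For the lower clones the median was 10.03, with 10 of 32 among the brightest 25% of tested clones and 4 among the dimmest 25%. The turned lists were dimmer than all clones, with medians of 8.18 for lower and 8.58 for higher clones. The higher clones came from 54 plates with at most 3 on one, and the lower from 26 plates with at most 4 on one. Clones of one list may stem from the same transcript, so they are not independent.

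Most called clones differed in the same direction at the other times. Higher clones had a median log2(HD/LD) of 0.20 at 6 h, 0.28 at 12 h, 0.57 at 24 h and 0.51 at 36 h, as means over the 3 drugs. Over all tested clones the median lay between -0.015 and 0.007 in the single conditions at 6, 12 and 36 h. The same sign in every condition at these 3 times was found for 603 of 18494 tested clones, and for 37 of the 60 higher ones. These counts carry no test. Of the 60, 54 were above 0 at 6 h, 59 at 12 h and 60 at 36 h. Their ratio at 6 h was nearer to 0 than at 24 h in 57, and at 12 h in all 60, but these clones had been chosen for a high value at 24 h. At 36 h 37 were nearer to 0 and 23 farther from it.

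The lower clones had medians of -0.70 at 6 h, -0.71 at 12 h, -0.84 at 24 h and -1.22 at 36 h. Of the 32, 30 were already below 0 at 6 h and at 12 h, and 31 at 36 h. In every condition at these times 27 of the 32 had the same sign, against the 603 of 18494 tested clones given above. At 36 h 26 of 32 lay farther from 0 than at 24 h, but the test of 36 against 24 h given below called 0 clones as falling. The step was uneven between drugs: from 24 to 36 h the median went from -0.66 to -1.04 under DMSO and from -0.86 to -1.66 under HMBA, but from -0.93 to -0.85 under TSA. These medians carry no test.

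**Figure D3:**
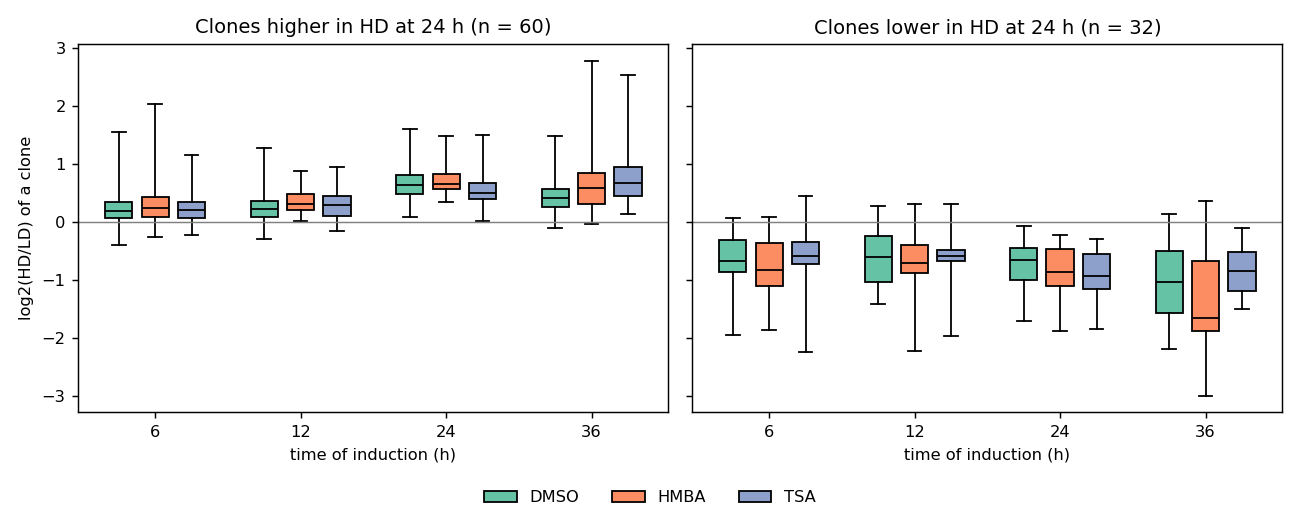
log2(HD/LD) of the 60 clones called higher (left) and the 32 called lower (right) in HD cells at 24 h, by time of induction in hours and by drug; boxes span the quartiles, lines mark medians and whiskers the full range over clones. The higher clones have medians of 0.64, 0.66 and 0.49 at 24 h against 0.19, 0.24 and 0.20 at 6 h, and the lower clones reach -1.66 under HMBA at 36 h.

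How far the drugs agreed was read first from clones at least 2-fold different under one drug with the same sign on its 4 arrays. Under DMSO 8 clones were higher and 12 lower, 0.0431% and 0.0646% of those with 4 values. Under HMBA 7 were higher and 14 lower (0.0392% and 0.0783%), and under TSA 11 were higher and 16 lower (0.0590% and 0.0858%). No test belongs to these counts, since a drug at one time was 1 condition with technical arrays only. For DMSO, turned arrays 3 and 4 gave 34 higher and 172 lower clones, for HMBA 1 and 19, and for TSA 34 and 148. With median centring in place of the brightness-dependent normalisation the counts were 6 and 49, 8 and 28, and 50 and 17. Under TSA the larger count was thus of higher clones with median centring, and of lower clones in the main and the turned counts. Leaving out array 4 of TSA gave 22 higher and 21 lower, and leaving out array 1 or 3 of DMSO gave 15 and 17 or 10 and 21.

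Lists of lower clones overlapped widely. Of 21 clones in any of the 3 lower lists, 13 were in at least 2 and 8 in all 3. HMBA and TSA shared 12 lower clones, 85.7% of the HMBA list and 75% of the TSA list. DMSO and HMBA shared 9, which was 75% of the DMSO and 64.3% of the HMBA list, and DMSO and TSA shared 8, 66.7% and 50%. The higher lists also held 21 clones in all, of which 4 were in at least 2 and 1 in all 3, H4004H01 by its values above. HMBA and TSA shared 4 higher clones, 57.1% of the HMBA list and 36.4% of the TSA list, and each shared 1 with DMSO. No clone was in a higher list under one drug and a lower list under another. With lists this short such a clone would be rare even between unrelated drugs, so its absence says little on agreement. Whether the higher lists overlap less than the lower ones was not tested. With arrays 3 and 4 turned, 67 of 261 lower clones were in at least 2 lists and 11 in all 3, against 1 and 0 of 68 higher clones. HMBA and TSA then shared 12 lower clones, 63.2% of the HMBA and 8.11% of the TSA list, and DMSO and TSA shared 65, which was 37.8% and 43.9%.

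Values under the drugs that had not chosen a list mostly kept its sign. The 12 lower clones of DMSO had a median of -1.19 under HMBA, where 11 had a value and all 11 were below 0, and of -1.09 under TSA, with 11 of 12 below 0. The 14 lower clones of HMBA and the 16 of TSA were all below 0 under both other drugs, with medians between -1.17 and -0.99. Among higher clones the 8 of DMSO had a median of 0.67 under HMBA, where 8 were above 0, but of 0.25 under TSA, where 5 were. The 11 of TSA had 0.65 under DMSO and 0.68 under HMBA, with 10 above 0 in each case. In a drug taken alone, between 46.8% and 53.2% of all clones lay on either side of 0.

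**Figure D4:**
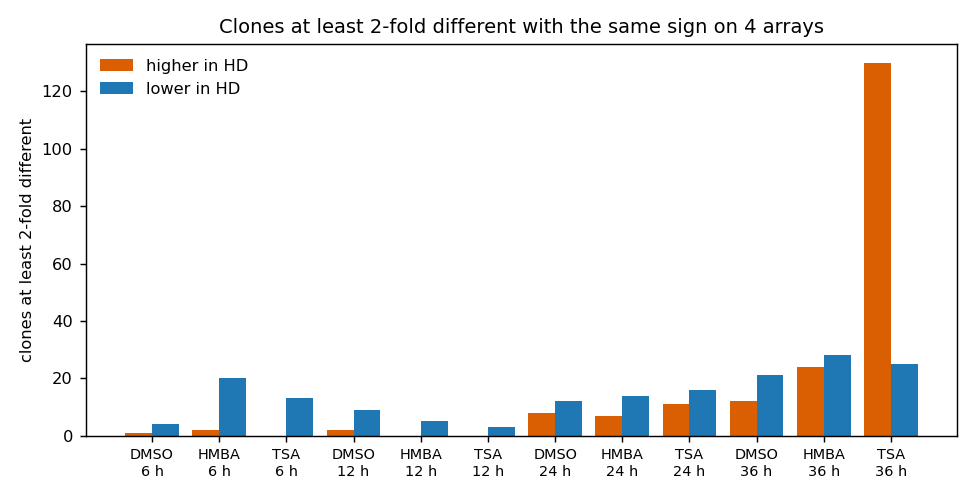
Number of clones at least 2-fold higher (orange) or lower (blue) in HD cells with the same sign on all 4 arrays, for each drug at 6, 12, 24 and 36 h. At 24 h the drugs lie between 7 and 11 higher and between 12 and 16 lower clones, closer to each other than at 36 h, where TSA has 130 higher clones. At 12 h they are also close, between 0 and 2 higher and between 3 and 9 lower clones.

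A looser choice used the other drugs only. Clones at least 1.5-fold different in the mean of a pair of drugs, with the same sign on their 8 arrays, were read under the remaining drug. Read under HMBA, 20 of 20 higher and 19 of 19 lower clones had the sign of the other drugs, with medians of 0.68 and -1.06 that were near the 0.70 and -1.06 under DMSO and TSA. Read under TSA, 41 of 47 higher and 19 of 21 lower clones did. Their medians were 0.37 and -1.06, against 0.71 and -0.91 under DMSO and HMBA. Read under DMSO, 38 of 42 higher and 24 of 35 lower clones did, with medians of 0.34 and -0.51 against 0.67 and -0.87 under HMBA and TSA. The share with the sign of the other drugs lay between 91.1% and 99.2% with arrays 3 and 4 turned.

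Over all tested clones the drugs agreed weakly. The values at 24 h had a correlation across 18494 clones of 0.28 between DMSO and HMBA, 0.37 between HMBA and TSA and 0.02 between DMSO and TSA. DMSO and TSA were also the least correlated pair at 12 h, with -0.11, and at 36 h, with -0.07, but not at 6 h, where they had 0.22 and DMSO and HMBA 0.13. Within a drug at 24 h the mean of arrays 1 and 3 had a correlation with that of arrays 2 and 4 of 0.57 for DMSO, 0.42 for HMBA and 0.51 for TSA. These correlations describe clones that share arrays, dyes and brightness, and they rise to 0.51, 0.53 and 0.55 with arrays 3 and 4 turned. The order of the pairs also depended on the setting. Arrays 1 and 2 alone gave 0.41 between DMSO and HMBA, 0.54 between HMBA and TSA and 0.35 between DMSO and TSA, whereas arrays 3 and 4 alone gave 0.44, 0.37 and 0.41. Median centring gave 0.37, 0.075 and -0.028, so that HMBA and TSA were then no longer the most correlated pair.

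**Figure D5:**
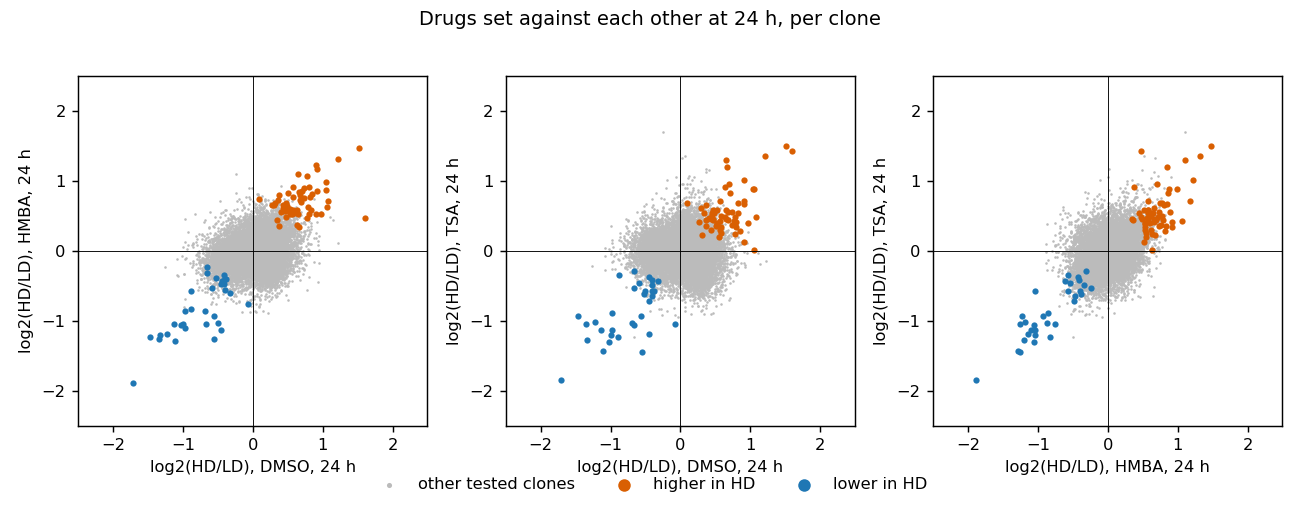
log2(HD/LD) at 24 h of each tested clone under one drug against another; orange and blue points are the 60 clones called higher and the 32 called lower in HD cells, grey points the other tested clones. The called clones lie to the upper right and lower left of 0 in all 3 panels, and the grey cloud has no slope for DMSO against TSA, where the correlation is 0.02.

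The gap between the highest and lowest drug had a median of 0.32 on the log2 scale over tested clones. Among the 366 clones whose 4 arrays had the same sign under each drug, 137 had opposite signs between drugs. Over all tested clones 35.8% had the same sign under the 3 drugs. The rest, with differing signs, were a larger share than 137 of 366. H3008G05 had the widest gap of the 366 clones, 1.33, with drug values of 1.14 for DMSO, 0.44 for HMBA and -0.19 for TSA. Its ratios were 2.17, 1.82, 0.38 and 0.20 on the DMSO arrays, 0.85, 0.54, 0.18 and 0.19 on the HMBA arrays and -0.40, -0.22, -0.08 and -0.05 on the TSA arrays. Arrays 1 and 2 carried most of the gap, and arrays 3 and 4 lay between -0.08 and 0.38. With 1 condition per drug at this time, a difference between drugs at 24 h has no replicate check.

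Differences between 24 h and the other times were tested in the same limma fit. In 0 clones was a difference in ratio called between 24 and 6 h, with 1841 clones at an unadjusted p under 0.05 and a smallest adjusted p of 0.317, and in 0 clones between 24 and 12 h, with 951 such clones and a smallest adjusted p of 0.170. For H4004H01 the ratio at 24 h exceeded that at 6 h by an estimate of 0.72 (interval 0.43 to 1.00, adjusted p = 0.317) and that at 12 h by 0.80 (interval 0.52 to 1.09, adjusted p = 0.228). H3140G04 had estimates of 0.69 and 0.82, H3049A07 -0.39 and -0.36, and H4016F12 0.21 and 0.055, none of them called. The median half-width of an interval was 0.30 over tested clones.

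From 24 to 36 h 1 clone was called, 0.00541% of those tested, and it moved towards HD cells. H3126G09 had 0.07, 0.44 and 0.42 under DMSO, HMBA and TSA at 24 h and 1.10, 1.78 and 1.90 at 36 h. Its rise was 1.28 (interval 0.95 to 1.61, adjusted p = 0.0128 in limma). At 24 h its ratios were 0.13, -0.23, 0.28 and 0.09 on the DMSO arrays, 0.38, 0.80, 0.16 and 0.43 on the HMBA arrays and 0.31, 0.52, 0.69 and 0.18 on the TSA arrays, with 11 of 12 above 0. Leaving out array 2 of every condition ended the call (1.15, adjusted p = 0.166), as did leaving out array 3 (1.26, adjusted p = 0.141). Median centring (1.21, adjusted p = 0.245) and the 2 times alone (1.28, adjusted p = 0.0849) also ended it. Leaving out array 4 gave 10 rising clones. With arrays 3 and 4 turned the estimate of H3126G09 was 0.045 and 0 clones were called. A further fit, called the replicate block below, took the technical arrays singly. The replicate number was a fixed term and the condition a random block, so its p-values rest largely on the spread between technical arrays. It gave 34 clones rising and 1 falling from 6 to 24 h and 1 rising from 12 to 24 h. From 24 to 36 h it gave 24 rising and 2 falling.

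The counts at 24 h changed with the drugs in the fit. All times without DMSO gave 10 higher and 11 lower clones, without HMBA 17 and 18, and without TSA 177 and 118. Without DMSO at 24 h 6 clones were higher and 17 lower, without HMBA at 24 h 9 and 16, and without TSA at 24 h 31 and 28. All 92 clones kept their sign in these 6 fits. In the first 3 they had to, since every called clone had the same sign under the 3 drugs. In the last 3 the missing value is filled by the additive model. The 3 conditions at 24 h taken alone gave 13 higher and 16 lower, all 29 among the 92. Leaving out array 1 of every condition gave 34 and 21, array 3 gave 30 and 19, the conditions at 12 h gave 32 and 20, and those at 36 h gave 223 and 74. An offset of 50 in both channels gave 140 higher and 42 lower. It moved H3140G04 to 1.17, H4016F12 to -1.54 and H3049A07 to -1.21, each within its interval above. The replicate block fit of single arrays gave 483 and 165. Its correlation within a condition was 0.0765, so technical arrays counted almost as independent and these counts are not better replicated.

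Levels within each line were read from single channels after scaling between arrays. This fit took the technical arrays singly, so its p-values rest largely on the spread between them. From 6 to 24 h 436 clones rose and 271 fell in HD cells (2.36% and 1.47% of those tested), and 24 rose and 103 fell in LD cells (0.130% and 0.557%). Of the 60 clones with a higher ratio at 24 h, 12 rose and 0 fell in HD cells, with a median change of 0.43, while 0 rose and 3 fell in LD cells, with a median of 0.05. The 12 became 2, 4 and 3 without array 2, 3 or 4, 1 without DMSO, with normalisation within arrays alone or with turned arrays, and 4 with averaged arrays, while the median in HD cells stayed between 0.22 and 0.50 in all level settings. Of the 32 lower clones 1 rose in HD cells, with a median change of 0.23, and 3 rose in LD cells, with 0.49. The clones had been chosen for the ratio on these same arrays at 24 h, so a larger change of one line than of the other is in part that choice.

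In HD cells H4004H01 rose by 1.01 (interval 0.46 to 1.57, adjusted p = 0.0235 in limma). The LD estimate was 0.30 (interval -0.26 to 0.86, adjusted p = 0.732). H3140G04 rose by 1.19 in HD cells (interval 0.66 to 1.72, adjusted p = 0.00443), with an estimate of 0.50 in LD cells (adjusted p = 0.453). H4016F12 had estimates of 0.86 in HD and 0.65 in LD cells and H3049A07 of 0.25 and 0.63, none of them called. For these 4 clones the difference between the lines' changes is the change of the ratio from 6 to 24 h, which was not called.

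These level counts depended on the scaling between arrays and on single array numbers. Normalisation within arrays alone moved the median change of all clones from -0.03 to -0.28 in HD and from -0.01 to -0.25 in LD cells, and left 1 clone rising in HD and 11 falling in LD cells. The median of the 60 higher clones in HD cells was then 0.22, still above that of all clones. The calls of H4004H01 and H3140G04 in HD cells were lost, with estimates of 0.82 and 0.97 (adjusted p = 0.275 and 0.183 in limma). Both were also lost without DMSO, at 0.70 and 1.19 (adjusted p = 0.689 and 0.162), and without array 2, at 1.11 and 1.19 (adjusted p = 0.0543 and 0.051). Turned arrays gave 0.59 and 0.86 (adjusted p = 0.587 and 0.382). H4004H01 alone lost its call without array 4, at 0.80 (adjusted p = 0.287). Without DMSO 3 clones rose in HD cells, and 3 rose and 8 fell in LD cells. Averaging the arrays of a condition before the fit gave 79 rising and 397 falling in HD cells and 12 and 294 in LD cells, so that the excess of rising clones in HD cells turned. Leaving out array 1, 2, 3 or 4 of every condition gave 476, 115, 188 or 110 rising and 510, 28, 87 or 68 falling in HD cells, so that without array 1 falling clones were the more numerous. In LD cells leaving out array 1, 2, 3 or 4 gave 34, 7, 9 or 2 rising and 233, 3, 11 or 7 falling. Turned arrays 3 and 4 gave 88 rising and 141 falling in HD cells, and 82 and 104 in LD cells.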

How the data were processed

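Each array had been deposited as 2 parts with, per the file headers, an intensity of the control and of the target RNA for each clone. These deposited intensity values carried no background or flag column, so no background correction and no filter on signal over background was made. A further deposited table held the authors' log2 ratios, with 22656 rows of which 496 were empty. Its 24 h columns had r between 0.991 and 0.999 with the ratios computed here, slopes between 0.976 and 0.997 and medians between -0.0039 and 0.0088, so that its scale is log2 and its direction target over control. How it was normalized is not given in these sources.

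A loess curve of log2(HD/LD) on mean log2 intensity (span 0.3) was taken off within each part of an array, which moved the values of an array at 24 h by a median of 0.24 to 0.57. Tested clones had a value in both array pairs of all 12 conditions. limma 3.58.1 (R 4.3.3) fitted an additive model of drug and time to the 12 condition values, leaving 6 residual degrees of freedom. Tests were two-sided, at a threshold of 0.05, with Benjamini-Hochberg adjustment over all tested clones. P-values measure the spread left between conditions, which may be technical, and the number of arrays limits precision. For levels, mean intensities were quantile normalized between arrays and single channels fitted, taking the condition as a random block. Same-numbered arrays of different drugs at 24 h deviated together (r between 0.33 and 0.45 across clones), while array 1 minus array 2 and array 3 minus array 4 did not (r between -0.07 and 0.12). The numbers thus group the arrays as 1 and 2 against 3 and 4. What sets these pairs apart was not tested.

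On simulated arrays of 18494 clones, 47.0% of 100 changes of 0.5 and 99.0% of 100 changes of 1 in the ratio at 24 h were recovered. For the ratio at 24 against 6 h these shares were 8.00% and 79.0%, for the HD level 8.00% and 78.0% and for the LD level 8.00% and 76.0%. False calls in these 4 comparisons numbered 6, 7, 10 and 4. Noise was drawn independently for each clone. For levels its size was chosen rather than taken from the data, and the array pairs did not differ. The level shares therefore do not measure the power of the level tests on these arrays. The clones named were those with the largest called values, the clones called from 24 to 36 h and the widest gap between drugs. Gene lists could not be applied without gene names. The part of the series, the lists and the tests were chosen with earlier results of these data known.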

Additional observations from a re-analysis of the deposited data

Results flagged for a closer look

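For the 6 clones named, the 4 arrays of each drug at 24 h were searched for one standing apart from the other 3 by Dixon's criterion. H3140G04 had 1.13 on array 3 of HMBA, below the 1.36 to 1.40 of its other HMBA arrays. For H4016F12 array 4 of HMBA gave -2.54, against -1.74 to -1.62 on the rest. Chance flags about 1 in 20 groups, or 0.90 of the 18 tested.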

How the results depend on the processing

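The count of 92 clones at 24 h became 2716 with arrays 3 and 4 turned, 57 with median centring, 182 with the offset of 50, 176 without the dimmest 25% of clones and 648 with the replicate block. It was 21 without DMSO, 35 without HMBA, 295 without TSA and 29 with 24 h alone. Without DMSO, HMBA or TSA at 24 h it was 23, 25 and 59, without the conditions at 12 h 52 and at 36 h 297, and without one array number between 49 and 90. All called clones still tested kept their sign in each of these except with arrays 3 and 4 turned, where 61 of 92 did and H4016F12 reversed to 0.026. Fewer of the 92 stayed called, 48 with median centring, 81 without TSA and 40 without TSA at 24 h. Without array 1, 2, 3 or 4, where a few were no longer tested, 52, 67, 49 and 66 did. With the offset 89 stayed called, with the replicate block 90 and without the conditions at 36 h all 92. The sign could not change without a whole drug, without the dimmest clones, with 24 h alone or without the conditions at another time. The replicate block left the 24 h estimates of the named called clones unchanged. From 6 to 24 h the 0 calls became 35 with the replicate block and 10 without the conditions at 36 h. From 12 to 24 h they became 1 with the block and 9 from the 2 times alone. From 24 to 36 h the 1 call became 0 with arrays 3 and 4 turned, with median centring and from the 2 times alone, 23 with the offset, 11 without the dimmest clones, 26 with the block, 3 without DMSO, 10 without TSA and 3 without HMBA at 12 h and TSA at 6 h. Without one array number it lay between 0 and 10. The 2-fold counts at 24 h, 20 for DMSO, 21 for HMBA and 27 for TSA, became 278, 179 and 238 at 1.5-fold, 55, 36 and 67 with median centring, and 206 for DMSO and 182 for TSA with arrays 3 and 4 turned. Without one array they were 23 to 32, 21 to 25 and 32 to 43. The mean correlation between drugs, 0.223, was 0.531 with turned arrays, 0.139 with median centring and 0.178 to 0.213 without one array number. Of level changes from 6 to 24 h, 707 in HD and 127 in LD cells became 1 and 11 with normalisation within arrays alone and 3 and 11 without DMSO. Turned arrays gave 229 in HD cells, and the replicate block 81 and averaged arrays 306 in LD cells. Without one array number they lay between 143 and 986 and between 9 and 267. The replicate block ended no call of a named clone at 24 h or from 24 to 36 h. The cause of these shifts was not tested. Leaving out times or weakly correlated conditions, averaging arrays for levels, the settings of the correlation between drugs, and the turned overlaps, parts and brightness were chosen after seeing the data.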
